A study of Mus musculus with 4 samples.

Results

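Keratins are the intermediate filament proteins of epithelial cells, and 14 of the 52 keratin genes in the expression table of this series reached 1 FPKM (fragments per kilobase of transcript, scaled to library depth) in at least 1 library. Members were chosen by gene symbol and by that level alone, without regard to which group was higher, so a gene could enter through 1 group only. RNA had been sequenced from cultured mouse mammary tumour cells of strain C3HeB/FeJ, in 4 libraries. The 2 libraries labelled Low came from 23116 MT, a parental line from a tumour of the Chaos3 mouse. The 2 labelled High came from AB-C1 and AB-C2, clones of that line transduced with a lentiviral vector to overexpress Arid1a, which belongs to the SWI/SNF (BAF) family of chromatin remodellers. Each clone gave 1 library, and the table does not say which High-labelled library is which clone, so clone and library cannot be told apart, and the labels name no clone with an empty vector.

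A keratin filament is built from paired chains, with a type I (acidic) chain joined to a type II (basic) chain. Simple epithelia, the luminal cells of the mammary gland among them, are known for Krt8, Krt18, Krt19 and Krt7. Basal and myoepithelial mammary cells are known for the pair Krt5 and Krt14, while stratified and wounded epithelia add Krt6a, Krt16, Krt10 or Krt4. Keratin genes lie in a type I cluster and a type II cluster, and the type I gene Krt18 sits at the edge of the type II cluster.

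Libraries held 13889858 and 28110812 fragments (Low) and 16523077 and 24307251 fragments (High). Arid1a itself was at 82.2 and 94.2 CPM (fragments scaled to library depth by TMM, not to length) in the Low-labelled libraries and at 49.8 and 58.3 CPM in the High-labelled ones, so the counted gene went against the labels. In edgeR the combined difference did not pass (adjusted p = 0.165), while in a fit that takes each High-labelled library alone Arid1a was called 1.78-fold lower in library 1 than in the Low pair (adjusted p = 0.0337) and not called in library 2 (adjusted p = 0.167). It is not given in the sources used here if vector RNA enters the Arid1a count, and all directions below are for libraries by their labels. Among markers fixed for other cells, 0 of 5 endothelial genes reached 1 FPKM in any library, 1 of 6 immune genes did (Cd68, at most 1.64 FPKM), and 1 of 4 adipocyte genes did (Fabp4, 1.31 FPKM in High-labelled library 1 and 0 in the Low pair). The defining genes Cd3e (T cells) and Plin1 (adipocytes) were listed at 0 in all 4. Fibroblast markers moved with the groups: 7 of 8 reached 1 FPKM, their summed FPKM was 1313 and 1169 in the Low-labelled libraries and 282 and 99.4 in High-labelled libraries 1 and 2, and Lum was listed at 0 throughout. The list did not move as one. Dcn (2.48 and 3.40 FPKM Low, 118 and 11.5 FPKM High) and Pdgfra (12.4 and 15.2 Low, 36.3 and 4.12 High) were higher in High-labelled library 1 than in the Low pair, and Col1a2 (231 and 197 Low, 2.90 and 60.7 High) was higher in library 2 than in library 1. Luminal markers other than keratins summed to 287 and 333 FPKM (Low) and 431 and 501 FPKM (High), most of it Cd24a (191, 243, 290 and 271 FPKM). Cdh1 and Epcam were highest in High-labelled library 2, and Gata3 stayed between 10.9 and 13.9 FPKM. Kit went from 0.440 and 0.593 FPKM (Low) to 0 and 0.0243 FPKM (High). Elf5 was at 0.725 and 0.813 FPKM (Low), 5.35 in High-labelled library 1 and 0 in library 2. Esr1 was at 0.567 and 0.521 FPKM (Low) and 1.24 and 0.605 FPKM (High). Prlr was near the floor in all 4, with 3 and 12 fragments (Low) and 0 in both High-labelled libraries. So was Pgr, with 0 and 5 fragments (Low) and 0 and 1 (High). The part of these markers in the keratin values was not tested.

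Promoter sequence is shown for 4 genes that stand for the main patterns below: Krt18 and Krt79, which differed between the High-labelled libraries, Krt10, which did not pass that test, and Krt5, which was close to absent. Each run ends at or just before the start of the gene as GENCODE M21 annotates it, and is written 5′ to 3′ on the strand of the gene (RefSeq, GRCm38.p6). Capitals mark matches to CACCTG or its reverse complement, an E-box of the kind bound by SNAI and ZEB repressors, and to TATAAA.
Krt18, chr15:102027966-102028179, plus strand: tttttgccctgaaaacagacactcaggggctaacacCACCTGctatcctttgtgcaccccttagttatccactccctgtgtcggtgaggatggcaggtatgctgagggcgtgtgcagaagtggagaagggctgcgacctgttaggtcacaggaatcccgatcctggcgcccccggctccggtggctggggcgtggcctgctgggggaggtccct
Krt79, chr15:101940325-101940574, minus strand: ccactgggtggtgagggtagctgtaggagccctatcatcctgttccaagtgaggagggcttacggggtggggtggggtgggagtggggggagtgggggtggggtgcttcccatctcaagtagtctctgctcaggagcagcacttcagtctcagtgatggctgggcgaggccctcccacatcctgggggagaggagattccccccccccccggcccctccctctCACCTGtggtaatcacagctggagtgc
Krt10, chr11:99389365-99389614, minus strand: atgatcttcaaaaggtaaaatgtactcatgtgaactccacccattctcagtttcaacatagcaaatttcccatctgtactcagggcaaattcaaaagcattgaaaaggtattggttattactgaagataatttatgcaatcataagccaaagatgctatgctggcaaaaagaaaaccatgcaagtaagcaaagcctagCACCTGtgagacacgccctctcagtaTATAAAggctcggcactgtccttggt
Krt5, chr15:101712906-101713155, minus strand: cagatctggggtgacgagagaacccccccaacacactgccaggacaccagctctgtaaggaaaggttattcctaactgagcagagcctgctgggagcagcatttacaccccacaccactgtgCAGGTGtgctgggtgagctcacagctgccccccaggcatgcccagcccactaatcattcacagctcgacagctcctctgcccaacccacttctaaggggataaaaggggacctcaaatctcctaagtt

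RefSeq windows were at hand for 7 of the 14 members (Krt7, Krt8, Krt10, Krt14, Krt18, Krt42 and Krt79) and for Krt5. In the 250 bases before the RefSeq start, searched on both strands, CACCTG was found in 5 of the 7 member windows, against 17.2% of all 32851 windows of that length. These were Krt7, Krt8, Krt10, Krt18 and Krt79, and Krt5 held it too. TATAAA stood in 1 of the 7 (Krt10), against 12.4% of all windows. Neither TGANTCA, the AP-1 motif, nor AACCGGTT, the grainyhead-like motif, was found in any of the 7, against 6.75% and 0.116% of all windows. The windows of Krt7 and Krt14 begin inside the gene as GENCODE annotates it, so neither is printed. The window of Krt8 begins 110 bases outside that gene and then enters it. The CACCTG matches of Krt7 and Krt8 thus lie inside the annotated gene. The window of Krt42 lies outside its gene, held no match to any of these motifs and is not printed. Every printed run thus carries CACCTG or its reverse complement. Matches are a description of letters and say nothing on binding.

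The keratin profile of these cells was made of few genes. Of the 52, 22 had 0 fragments in all 4 libraries after rounding, and another 16 had fragments but stayed under 1 FPKM. The 14 members carried at least 99.9% of the summed keratin FPKM of each library. By class they were 5 of 7 simple keratins, 2 of 4 basal, 6 of 15 stratified, 0 of 24 hair and root sheath keratins, and Krt42, a type I keratin known from the mouse nail. Krt17, at most 1.28 FPKM, and Krt6b, also at most 1.28 FPKM, lay just inside the threshold, while Krt15 (0.688), Krt13 (0.686) and Krt5 (0.505) lay just outside it.

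**Figure D1:**
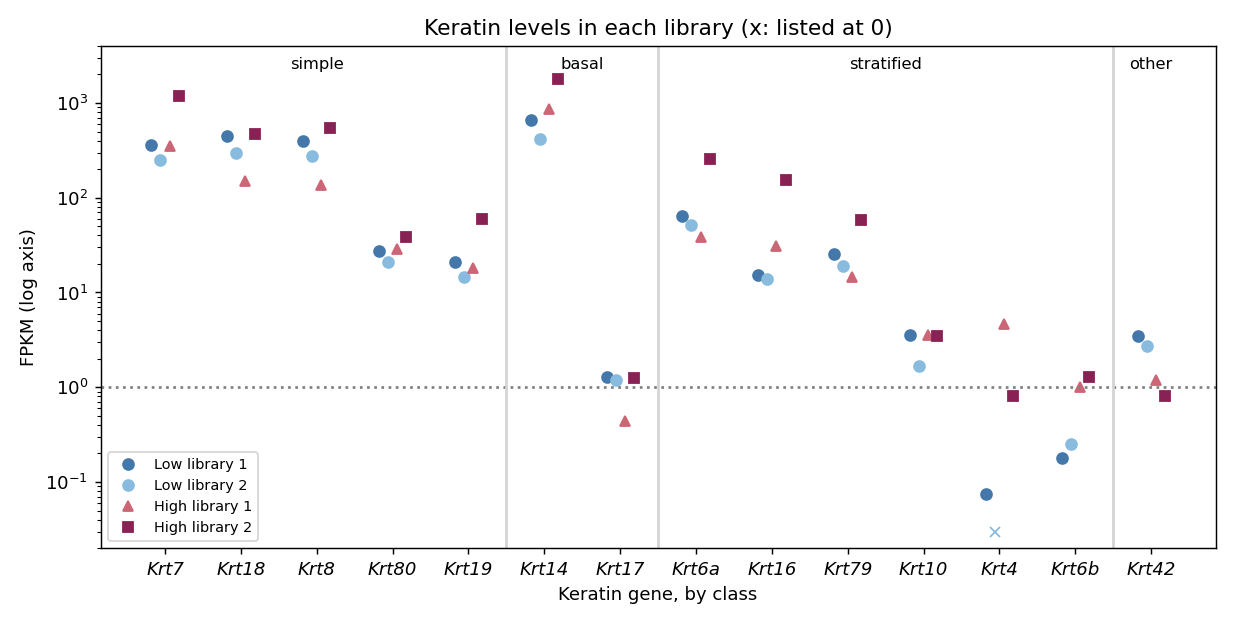
FPKM (log axis) of the 14 keratins in each library, grouped by class, with circles for the Low-labelled libraries, a triangle for High-labelled library 1 and a square for High-labelled library 2; a cross marks a gene listed at 0, and the dotted line is 1 FPKM. Krt14, Krt7, Krt8 and Krt18 lie above 100 FPKM in all 4 libraries, and the square of library 2 lies above the triangle of library 1 for 11 of the 14.

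Summed over all keratins, the level was 2033 and 1370 FPKM in Low-labelled libraries 1 and 2, 1645 in High-labelled library 1 and 4576 in High-labelled library 2. The sum of High-labelled library 1 thus lay between those of the Low pair, and that of library 2 lay above all 3 others. Simple keratins made up 61.7% and 62.8% of the sum in the Low-labelled libraries, 41.97% in High-labelled library 1 and 50.4% in library 2. The basal class, which was nearly all Krt14, held 32.7% and 30.6% of the sum in the Low pair and 52.2% and 39.2% in High-labelled libraries 1 and 2. Stratified keratins held 5.35% and 6.30% (Low), 5.70% (High library 1) and 10.3% (High library 2). Simple keratins were thus a smaller share, and the basal class a larger one, in both High-labelled libraries than in either Low-labelled one. As summed FPKM, simple keratins were at 1255 and 860 (Low), 690 (High library 1) and 2308 (High library 2). Their sum was thus below the Low pair in library 1 and above it in library 2. The basal class summed to 665 and 420 FPKM (Low), 859 (High library 1) and 1794 (High library 2). In bulk RNA, fewer cells that express a keratin and less of its RNA per cell cannot be told apart.

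**Figure D2:**
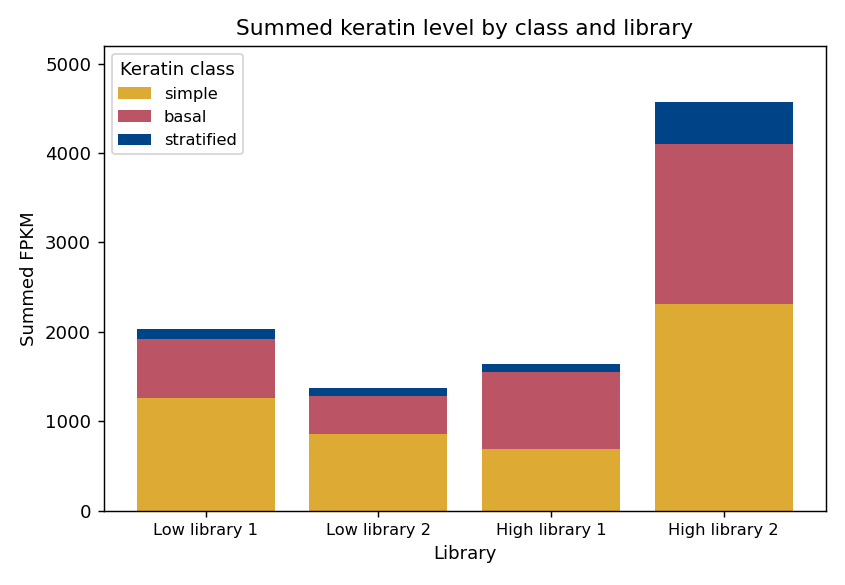
Summed FPKM of simple, basal and stratified keratins, stacked, in each of the 4 libraries. Hair and root sheath keratins (at most 0.657 FPKM) and Krt42 with Krt222 (at most 3.47 FPKM) are left out of the stack; with them the bar of High-labelled library 2 stands for 4576 FPKM and the other 3 for 1370 to 2033 FPKM.

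Type I chains summed to more than type II chains in every library, and most so in High-labelled library 1. The summed FPKM of type I members was 1.31 and 1.21 times that of type II members in Low-labelled libraries 1 and 2, 1.84 times in High-labelled library 1 and 1.19 times in High-labelled library 2. Krt8 and Krt18, the pair that forms the first filaments of simple epithelia, stayed near equal. Their ratio (Krt8 over Krt18, FPKM) was 0.905, 0.922 and 0.910 in Low-labelled libraries 1 and 2 and High-labelled library 1, and 1.14 in High-labelled library 2. The ratio of Krt7 to Krt19 ran from 17.3 to 20.0 over the 4 libraries. Other ratios were less steady. Krt7 over Krt8, which are both type II chains, was 0.904 and 0.921 in the Low pair but 2.57 and 2.21 in the High-labelled libraries. Krt6a over Krt16 was 4.12 and 3.69 against 1.27 and 1.68. These ratios are a description, with no test.

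The comparison the study was designed for sets both High-labelled libraries against both Low-labelled ones, and in it 0 of the 14 keratins passed edgeR's quasi-likelihood test (adjusted p under 0.05), while 2.47% of the 12987 tested genes did. At an unadjusted p under 0.05 there were 5 (Krt4, Krt6b, Krt14, Krt42 and Krt16), beside 2348 of the 12987 tested genes. DESeq2 called 2 (Krt14 and Krt4, both higher), and limma-voom and limma on log2(FPKM + 1) called 0. The fitted log2 fold change lay above 0 for 11 members and below 0 for 3, beside 6783 and 6204 of the tested genes. Its median was 0.94 over the 14 and 0.03 over all tested genes. Both High-labelled libraries lay above both Low-labelled ones for 5 members (Krt4, Krt6b, Krt14, Krt16 and Krt80), which was the case for 25.9% of tested genes, and below both for Krt42, as for 25.1% of tested genes. In the other 8 the groups overlapped. Krt4 and Krt6b reached 1 FPKM in High-labelled libraries only. Their part in these counts and in the median thus follows in part from how members were chosen. The labels do not say whether the Low pair came from separate cultures, so its part of the spread behind each p-value may be technical. That spread also holds the difference between the High-labelled libraries, which came from different clones.

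A second fit with 3 groups, the Low pair and each High-labelled library alone, separates the High-labelled libraries. It takes its spread from the Low pair alone, a spread that may be technical, and assumes that a lone library varies likewise. Its p-values thus concern these libraries and not Arid1a. In High-labelled library 1 against the Low pair, 3 keratins rose (Krt4, Krt6b and Krt16) and 2 fell (Krt8 and Krt18), against 10.5% of all genes higher and 7.68% lower. In High-labelled library 2 against the same pair, 8 rose (Krt4, Krt6a, Krt6b, Krt7, Krt14, Krt16, Krt19 and Krt79) and Krt42 fell, against 8.64% of genes higher and 7.55% lower. Both comparisons share the Low pair, and in both the rises of Krt4 and Krt6b were favoured by the choice of members. Tested directly, High-labelled library 2 exceeded library 1 in 8 of the 14 keratins and was lower in 1, Krt4, against 4.30% of all 13674 genes higher and 6.48% lower. The median log2 fold change of library 2 over library 1 was 1.58 over the members and 0.01 over all genes. In limma-voom with the same 3 groups, Krt14 also passed in library 1 and Krt8 in library 2, each as higher than the Low pair.

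**Figure D3:**
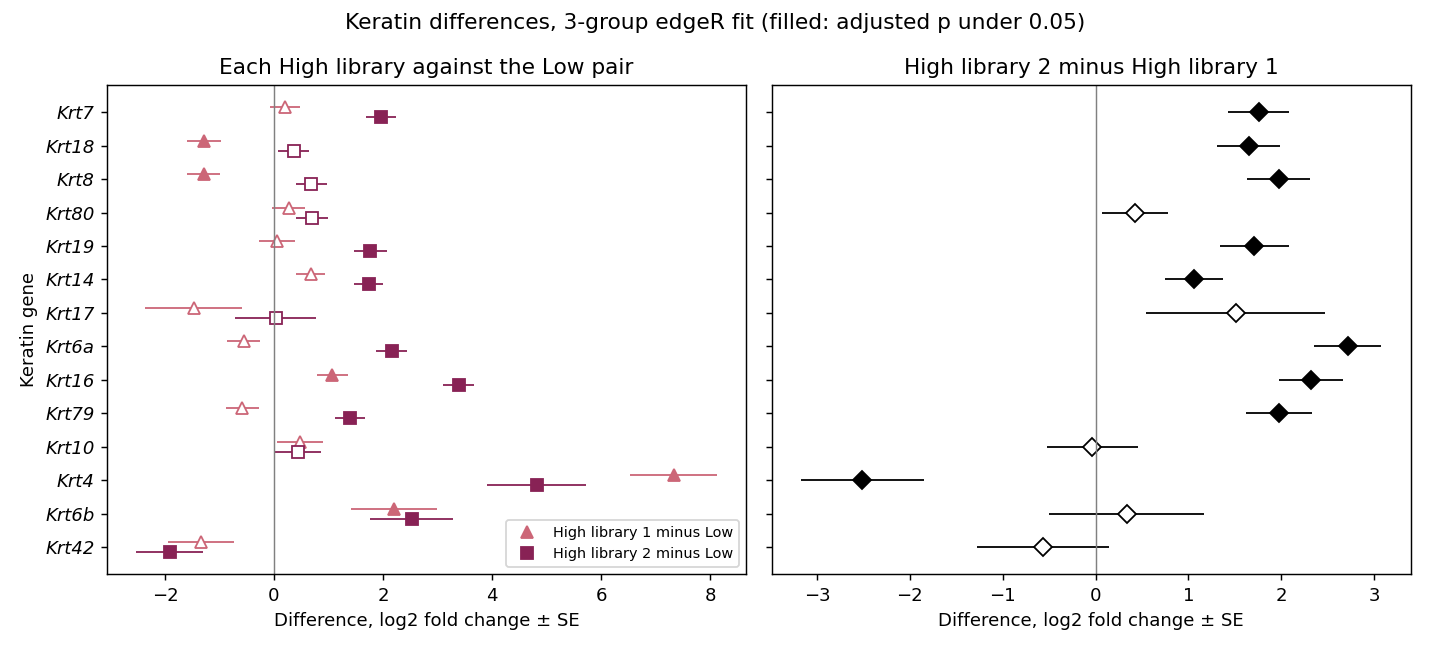
Differences (log2 fold change ± SE, edgeR fit with 3 groups) for each keratin, left for each High-labelled library minus the Low pair and right for High-labelled library 2 minus library 1; filled symbols passed at an adjusted p under 0.05. On the right 8 keratins lie above 0 and filled, Krt4 lies at -2.51, and Krt10 is close to 0.

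Among the simple keratins, Krt8 (chromosome 15, 101996698 to 102004482, mm10, minus strand) was at 401 and 274 FPKM in the Low-labelled libraries, 138 in High-labelled library 1 and 541 in library 2. The High-labelled libraries thus lay on either side of the Low pair. Krt8 was 2.44-fold lower in library 1 than in the Low pair (log2 fold change -1.29 ± 0.30 SE, adjusted p = 2.85e-04, edgeR). In library 2 the log2 fold change was 0.69 ± 0.28 and did not pass (adjusted p = 0.0710). Between the High-labelled libraries the difference was 3.93-fold (adjusted p = 3.08e-07). A fit that averaged them gave a log2 fold change of 0.02 ± 0.74.

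Krt18 (chromosome 15, 102028180 to 102032027, plus strand), the type I partner of Krt8, followed the same order, at 443 and 297 FPKM in the Low pair, 151 in High-labelled library 1 and 474 in library 2. It was 2.43-fold lower in library 1 than in the Low pair (adjusted p = 3.69e-04, edgeR) and 3.14-fold higher in library 2 than in library 1 (adjusted p = 3.91e-05). Library 2 itself lay only slightly above the Low pair, with a log2 fold change of 0.37 ± 0.28 that did not pass (adjusted p = 0.444).

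Krt7 (chromosome 15, 101411043 to 101430313, plus strand), a type II keratin of glandular ducts, did not fall with Krt8 in High-labelled library 1. Its levels were 363 and 253 FPKM in the Low pair, 354 in library 1 and 1194 in library 2. Library 1 lay within the Low pair, and library 2 was 3.90-fold above that pair (adjusted p = 1.30e-11, edgeR) and 3.38-fold above library 1 (adjusted p = 4.74e-06). Krt19 (chromosome 11, 100140810 to 100148665, minus strand), a tail-less type I keratin of luminal cells, was at 21.0 and 14.5 FPKM (Low), 18.3 (High library 1) and 59.7 (High library 2). It too stood out in library 2 alone, 3.27-fold above library 1 (adjusted p = 1.35e-04, edgeR). Krt80, a type II keratin known to lie near cell borders, varied least in this class, at 27.1 and 21.0 FPKM (Low) and 28.8 and 38.6 FPKM (High). Its High-labelled libraries lay above the Low pair by a log2 fold change of 0.50 ± 0.27 that did not pass (adjusted p = 0.384, edgeR).

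Krt14 (chromosome 11, 100203162 to 100207548, minus strand), the type I keratin of basal epithelial cells, had the highest FPKM of all keratins in each of the 4 libraries. It was at 663 and 418 FPKM in the Low-labelled libraries, 859 in High-labelled library 1 and 1792 in library 2, and ranked 118, 169, 72 and 28 among the 23361 genes of the table. Both High-labelled libraries lay above both Low-labelled ones, and the combined difference of 2.47-fold (log2 fold change 1.30 ± 0.42 SE) was not called by edgeR (adjusted p = 0.192) but was by DESeq2 (adjusted p = 0.0224). Across the alternatives tried its adjusted p ran from 1.4e-09, without High-labelled library 1, to 0.881, without Low-labelled library 2. Library 2 was 3.33-fold above the Low pair (adjusted p = 9.9e-10, edgeR) and 2.09-fold above library 1 (adjusted p = 0.0105).

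Krt5, the type II keratin that pairs with Krt14 in basal cells, was close to absent. It had 10 and 6 fragments in the Low-labelled libraries, 0 in High-labelled library 1 and 25 in library 2, that is 0.367, 0.110, 0 and 0.505 FPKM. Where Krt5 was above 0, Krt14 was between 1806 and 3815 times higher per length. A count of 0 in library 1 allows up to 3 fragments, or 0.182 CPM before scaling, counting error only. Krt17, a type I keratin of appendages and wounded skin whose gene follows Krt16 in the cluster, was at 1.28 and 1.19 FPKM (Low) and 0.439 and 1.26 FPKM (High). Krt15, the remaining basal keratin, had at most 26 fragments in any library. Of the basal markers that are not keratins, the smooth-muscle actin Acta2 was at 553 and 483 FPKM in the Low pair. In the High-labelled libraries Acta2 was at 9.45 and 3.59 FPKM (79.2-fold lower, adjusted p = 0.00976, edgeR on counts). The myoepithelial genes Myh11, Cnn1, Oxtr and Mylk stayed below 1 FPKM in every library. Trp63, the basal regulator p63, was at 0.614 and 0.590 FPKM (Low) and 1.42 and 5.49 FPKM (High libraries 1 and 2). This 8.43-fold difference did not pass (adjusted p = 0.0975, edgeR on counts). Cdh3, P-cadherin of basal cells, rose from 1.33 and 1.15 FPKM (Low) to 4.99 and 4.12 FPKM (High) (3.71-fold, adjusted p = 0.0491, edgeR on counts), opposite to Acta2.

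Among stratified keratins, Krt6a and Krt16, known for their rise in wounded and hyperproliferative epidermis, were highest in High-labelled library 2. Krt6a (chromosome 15, 101689910 to 101694307, minus strand) was at 63.7 and 51.1 FPKM in the Low pair, 39.0 in High-labelled library 1 and 256 in library 2. The High-labelled libraries lay on either side of the Low pair, as for Krt8, with a 6.57-fold difference between them (adjusted p = 1.07e-11, edgeR). Unlike that of Krt8, the fall of Krt6a in library 1 from the Low pair did not pass (log2 fold change -0.55 ± 0.30). Krt16 (chromosome 11, 100246091 to 100248902, minus strand) was at 15.5 and 13.9 FPKM (Low), 30.6 (High library 1) and 152 (High library 2). Here both High-labelled libraries lay above the Low pair, by 2.10-fold in library 1 (adjusted p = 0.00198, edgeR) and 10.5-fold in library 2 (adjusted p = 1.05e-30), yet the combined difference did not pass (log2 fold change 2.65 ± 0.90, adjusted p = 0.271).

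Krt79 (chromosome 15, 101929332 to 101940324, minus strand), known from the opening of hair follicles, was at 25.3 and 19.1 FPKM (Low), 14.7 (High library 1) and 57.8 (High library 2). It was 3.93-fold higher in library 2 than in library 1 (adjusted p = 1.05e-06, edgeR), and the fall of library 1 from the Low pair did not pass (log2 fold change -0.58 ± 0.31, adjusted p = 0.191). Krt10, the keratin of differentiating epidermis, was at 3.55 and 1.67 FPKM (Low) and 3.53 and 3.44 FPKM (High). Krt1, its usual type II partner, had 7 fragments in Low-labelled library 2 and 0 in the other 3.

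Krt4 and Krt6b stood at low levels and above the Low pair in both High-labelled libraries. Both are members only through High-labelled libraries, so this direction was favoured by the choice of members. Krt4 (chromosome 15, 101918535 to 101924735, minus strand), a keratin of the oral and oesophageal lining, had 2 and 0 fragments in the Low-labelled libraries, 156 in High-labelled library 1 and 39 in library 2. The ratio of High to Low was 95.8 with a 95% interval of 26.2 to 796 for counting error only. EdgeR's combined test missed its threshold (adjusted p = 0.0987). DESeq2 (2.46e-04), edgeR with no filter on low counts (0.0384) and edgeR with the replicate block (0.00281) passed it, but that block is arbitrary. Limma-voom (adjusted p = 0.182), limma on log2(FPKM + 1) (0.183) and limma on log2(FPKM + 0.1) (0.0791) did not pass. Neither did edgeR with DESeq2's size factors. Krt4 was the keratin that went the other way between the High-labelled libraries, 5.70-fold lower in library 2 (adjusted p = 0.00262, edgeR). Krt6b had 5 and 14 fragments (Low) and 36 and 65 (High), or 0.179, 0.250, 1.02 and 1.28 FPKM. It was 4.58-fold and 5.77-fold above the Low pair in libraries 1 and 2 (adjusted p = 0.0336 and 0.00806, edgeR). Krt42 moved down instead, from 3.47 and 2.70 FPKM (Low) to 1.20 and 0.806 FPKM (High), and passed in library 2 (3.76-fold lower, adjusted p = 0.0153, edgeR) but not in library 1 (adjusted p = 0.109).

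Low-labelled libraries 1 and 2 differed as well. FPKM was higher in library 1 for 13 of the 14 keratins, Krt6b being the exception, with a median ratio of 1.33 over the 13 that were above 0 in both. Over the 12222 genes that reached 1 FPKM, library 1 was higher for 50.6%, with a median ratio of 1.004. For High-labelled library 2 over library 1 the median ratio was 2.999 over the 14 keratins and 1.01 over those genes. The Low pair is the only replicate spread in the fit with 3 groups.

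Near-identical copies make some of these counts uncertain. Of the 50-base words in the longest coding transcript (GENCODE M21), 49.5% for Krt6a and 50.1% for Krt6b also occur in transcripts of other genes, mostly each other's. The share was 37.6% for Krt16, mostly with Gm11597, 26.9% for Krt8, all with the pseudogene transcript Krt8-ps, and 14.4% for Krt14, mostly with Krt16. It was 3.995% for Krt17, 0.72% for Krt18, 0.27% for Krt42, and 0 for Krt4, Krt7, Krt10, Krt19, Krt79 and Krt80. Of these 6 without shared words, Krt7, Krt19 and Krt79 were higher in High-labelled library 2 than in library 1, Krt4 was lower, and Krt10 and Krt80 did not pass.

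Keratins at high and at low levels were neighbours in both clusters. The 27 keratins on chromosome 11 span 1037 kb (99232761 to 100269871, mm10) and hold 6 members, and the 24 on chromosome 15 span 684.6 kb (101347444 to 102032027) and hold 8. At the end of the chromosome 11 cluster, Krt14, Krt16, Krt17 and Krt42 are neighbours in that order. Their levels in High-labelled library 2 were 1792, 152, 1.26 and 0.806 FPKM. On chromosome 15 Krt5 is next to Krt6a, at 0.505 FPKM against 256 FPKM in the same library. Of the 52 symbols, 51 were matched to GENCODE M21.

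**Figure D4:**
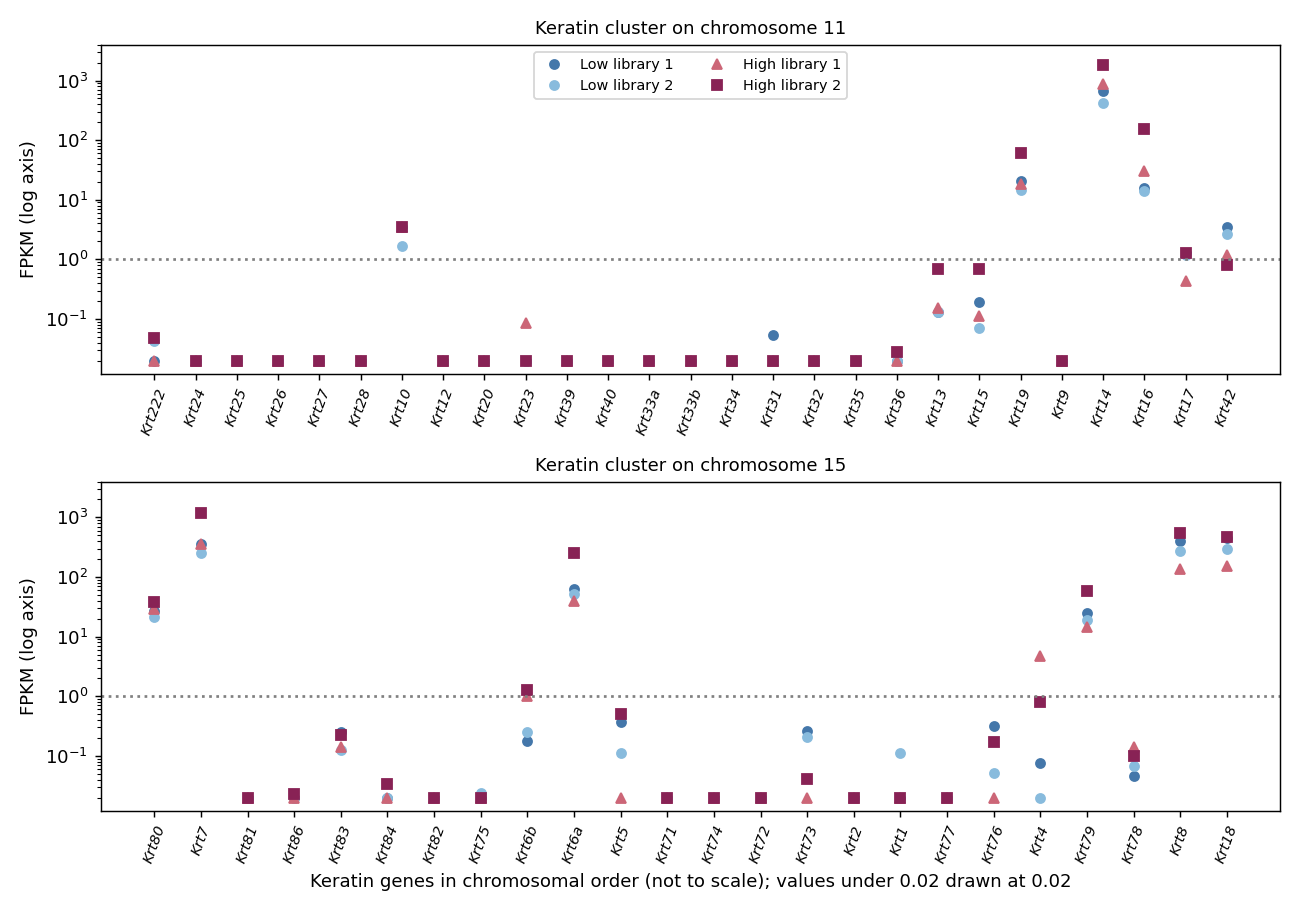
FPKM (log axis) of the 51 matched keratins in chromosomal order, for the clusters on chromosomes 11 and 15, with values under 0.02 drawn at 0.02 and a dotted line at 1 FPKM. High levels stand beside near-silent neighbours, such as Krt16 beside Krt17 and Krt6a beside Krt5.

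Genes that work with keratins were described from fixed lists. Of 17 tested genes whose products anchor or bundle keratin filaments, 2 rose in the combined comparison and 15 did not pass, where 2.47% of all tested genes passed in either direction. Their median log2 fold change was 0.68, against 0.03 over all tested genes. Periplakin, Ppl, went from 9.84 and 9.95 CPM (Low) to 34.1 and 57.3 CPM (High) (4.62-fold, adjusted p = 0.0198, edgeR), and Itga6, the hemidesmosome integrin chain, from 44.9 and 57.8 to 127 and 237 CPM (3.54-fold, adjusted p = 0.0464). Between the High-labelled libraries plakoglobin (Jup), plakophilin 3 (Pkp3) and envoplakin (Evpl) were higher in library 2, and 0 of the 17 were lower, against 4.30% and 6.48% of all genes. Of 8 tested intermediate filament genes that are not keratins, vimentin, Vim, the mesenchymal filament, fell from 2167 and 1725 to 760 and 591 CPM (2.88-fold, adjusted p = 0.0275, edgeR), and 7 did not pass, again beside 2.47% of all genes, the median being -0.31. For Vim both High-labelled libraries lay below both Low-labelled ones. That was the case for 4 of these 8 genes, with 1 above instead, and for 25.1% of all tested genes.

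Of 7 tested cornified envelope genes, whose products coat terminally differentiated keratinocytes, 2 rose and 5 did not pass (median log2 fold change 2.35, against 0.03 and 2.47% called over all genes). Suprabasin, Sbsn, rose from 4.48 and 5.60 to 50.3 and 80.7 CPM (12.9-fold, adjusted p = 0.00352, edgeR) and the cross-bridging protein gene Sprr1a from 2.79 and 1.72 to 77.1 and 24.6 CPM (22.9-fold, adjusted p = 0.0441). Of 18 epithelial transcription factors, 1 rose and 17 did not pass (median 1.26, beside the same 0.03 and 2.47%): Klf5 went from 16.7 and 17.5 to 43.4 and 55.2 CPM (2.88-fold, adjusted p = 0.0306, edgeR). Without either Low-labelled library, edgeR called 0 genes in all, and these calls were lost. DESeq2 called 6 filament linkers, 5 cornified envelope genes and 7 of these factors, edgeR with no low-count filter called 4, 4 and 6, and limma-voom called 1, 1 and 0. Limma on log2(FPKM + 1) called 0 linkers, 3 cornified envelope genes and 1 factor, and lost the call of Vim. Over all genes, the counts were 1161 with DESeq2, 814 with no low-count filter, 217 with limma-voom and 259 with limma on log2(FPKM + 1). The fit reported called 321.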

How the data were processed

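RNA-seq of 4 libraries (2 Low, 2 High) was used. Per the submitters' processing notes, cutadapt 1.5, TopHat2 2.0.13 and Cuffdiff 2.2.1 were used with build mm10 (the libraries were directional); the sources used here name neither annotation nor strand setting. The authors' deposited table gives, for each gene in each library, an estimated count of fragments (99.18% whole within 1e-06, all rounded here), a scaled signal (deposited, not used in tests) and the authors' FPKM. Low counts, shared sequence and the authors' scaling between libraries can all move FPKM. The table numbers libraries within a group; the numbers only name them.

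Counts were tested with edgeR 4.0.16 (quasi-likelihood, robust, TMM, filterByExpr, Benjamini-Hochberg over all tested genes, two-sided; limma 3.58.1, DESeq2 1.42.0, R 4.3.3). The fit of High against Low left 2 residual degrees of freedom, with a biological variation coefficient of 32.2%; the fit with 3 groups left 1, with 17.3%. Scripts were tested on simulated data. An exact permutation test is not given, since 2 libraries against 2 cannot pass. All 14 members passed the count filter of both fits, and Krt5 passed too.

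Every keratin reaching 1 FPKM was named; of other lists, up to 4 rises and 4 falls past the threshold. Members and lists were chosen with earlier results of these data known.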

Additional observations from a re-analysis of the deposited data

Results flagged for a closer look

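The High-labelled libraries, 1 from each clone, differed from each other in 9 of the 14 keratins by a direct test of the difference (edgeR, fit with 3 groups, whose only replicate spread is the Low pair). By the same test 4.30% of all 13674 genes were higher in library 2 and 6.48% were lower. The log2 fold change of library 2 over library 1 was 2.71 for Krt6a, 2.32 for Krt16, 1.98 for Krt8, 1.97 for Krt79, 1.75 for Krt7, 1.71 for Krt19, 1.65 for Krt18 and 1.06 for Krt14, each higher in library 2, and -2.51 for Krt4, higher in library 1. Fibroblast markers, at a summed 282 FPKM in library 1 and 99.4 FPKM in library 2, differed between these libraries too, though Col1a2 was higher in library 2 (2.90 against 60.7 FPKM) while Col3a1, Dcn and Pdgfra were lower there. Their part in the keratin difference was not tested.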

How the results depend on the processing

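In the combined comparison of High against Low, the count of keratins called was 0 in the fit reported and 0 with DESeq2's size factors in edgeR, limma-voom and limma on log2(FPKM + 1) or log2(FPKM + 0.1). It was 2 with DESeq2 (2 higher), 1 with no low-count filter (1 higher), 1 with the replicate block (1 higher, Krt4), and 0 to 9 with a library left out (0 to 8 higher, 0 to 2 lower): 0 without either Low-labelled library, 4 without High-labelled library 2 and 9 without High-labelled library 1. Over all genes 321 were called, against 1161 with DESeq2, 814 with no low-count filter and 0 to 2475 with a library left out. Signs turned where fold changes were small or the High libraries disagreed. Krt8 (log2 fold change 0.02) was at -0.27 with limma-voom, -0.28 on either FPKM scale and -0.27 with the replicate block. With a library left out, log2 fold changes ran from -1.29 (without High-labelled library 2) to 0.69 (without High-labelled library 1) for Krt8, likewise from -1.28 to 0.37 for Krt18, -1.47 to 0.042 for Krt17, -0.55 to 2.17 for Krt6a and -0.58 to 1.40 for Krt79, and from -0.024 (without Low-labelled library 2) to 1.07 (without Low-labelled library 1) for Krt10. Krt18 was at 0.08 without Low-labelled library 1 and Krt8 at -0.24 without Low-labelled library 2. The cause was not tested. The fits with 3 groups kept 5 to 6, 9 to 10 and 9 calls under their 3 alternatives. Numbers in the table pair no samples by design (correlation of deviations -0.14 for equal numbers), so the block is arbitrary. With a minimum of 0.5 or 2 FPKM the count of keratins was 17 or 12. Depth limits Krt4, Krt5, Krt6b, Krt10, Krt17 and Krt42, with at most 162 fragments in any library.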

Other observations

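Among the epithelial transcription factors, the High-labelled libraries differed in 7 of 18 by the direct test (edgeR, fit with 3 groups), 4 higher in library 2 and 3 lower, against 4.30% and 6.48% of all 13674 genes; the 5 genes named here were chosen after their values were seen. Elf5, a regulator of luminal alveolar cells, was at 1.47 and 1.57 CPM (Low), 10.9 (High library 1) and 0 (High library 2). Ehf, an epithelial ETS factor, was at 11.5 and 15.7 CPM (Low), 45.6 (High library 1) and 6.43 (High library 2), and the homeobox gene Pitx1 at 0.0735 and 0.110, 34.9 and 0.692 CPM. These 3 and Krt4 were higher in library 1, while Trp63 (2.13 and 1.28, 5.90 and 22.5 CPM) and Elf3 (1.62 and 1.61, 2.98 and 13.5 CPM) were higher in library 2, as 8 of the keratins were.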
